A study of Mus musculus with 6 samples.

Results

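The Tribbles family comprises the pseudokinase genes Trib1, Trib2 and Trib3, taken here with Cop1, the E3 ubiquitin ligase that they recruit. Their probe sets were all those that the platform's gene table assigns to exactly 1 of these 4 symbols, which gave 8 of the 45101 probe sets on the array: 2 for Trib1, 3 for Trib2, 2 for Trib3 and 1 for Cop1. The family was selected on its difference between these same 6 arrays, so the values of the 8 probe sets are given as a description, without a test.

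The study compared haematopoietic stem cells (HSCs) of mice lacking Irgm1 (also called Lrg-47, an interferon-induced GTPase) with those of wild-type mice, on 3 Affymetrix arrays per group. All mice were C57BL/6, 8 to 12 weeks old, kept under pathogen-free conditions and given no treatment that the labels mention. HSCs were sorted from marrow as side population cells, which pump out a Hoechst dye, with antibodies to Sca-1, c-kit and the Lineage antigens. The labels give neither the deleted part of Irgm1 nor whether the arrays of a group came from separate mice or pools, so any p-value here measures the spread between these arrays, which may be technical.

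Tribbles proteins have a kinase fold but little or no catalytic activity, and act as scaffolds. Their C-terminal tail binds COP1, while the pseudokinase domain holds a substrate, so that the substrate is ubiquitinated and degraded. For Trib1 and Trib2 the best known substrate is the myeloid transcription factor C/EBP alpha, and forced expression of either causes acute myeloid leukaemia in mice. Tribbles proteins also bind the kinase MEK1, and Trib3 binds AKT and is induced by, and feeds back on, the stress factor ATF4.

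The single probe set of Irgm1 read 7.68, 8.58 and 7.84 on the arrays labelled Irgm1-/- and 8.39, 8.57 and 8.36 in wild type, on the log2 scale of all levels below. With the deleted part unknown, this checks nothing about the genotype. Array medians ran from 3.67 to 3.73 and the highest bacterial control probe set, a mark of no signal, from 3.00 to 3.18. HSC markers were above that mark on all arrays (Procr, a surface receptor of HSCs, read 12.92 to 13.16 on Irgm1-/- arrays and 13.23 to 13.56 in wild type). Of 7 such markers on the array, 1 (Slamf1) had a higher mean in the Irgm1-/- group, and limma called 0.

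The sequences just upstream of the transcription starts of Trib2 and Trib3 are shown because each has a probe set on which all Irgm1-/- arrays lay below all wild-type arrays. The same held for 11.0% of the 22580 probe sets tested, and on the other probe sets of both genes the groups overlapped. Both sequences are RefSeq promoters of mouse build GRCm38.p6, cut to the 250 bases before the start, and 3 of the 4 genes (Trib2, Trib3 and Cop1) matched an entry. Trib2 lies on the minus strand at chr12:15816786-15817035, and capitals mark a PBX-HOX motif and a MEIS motif. Trib3 lies on the minus strand at chr2:152344061-152344310, and capitals mark a loose C/EBP-ATF motif.
Trib2: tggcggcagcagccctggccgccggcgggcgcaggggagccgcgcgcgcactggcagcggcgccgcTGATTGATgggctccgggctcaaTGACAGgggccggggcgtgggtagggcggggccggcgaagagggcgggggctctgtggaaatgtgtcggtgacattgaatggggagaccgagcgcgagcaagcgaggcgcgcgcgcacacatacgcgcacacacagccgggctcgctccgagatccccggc
Trib3: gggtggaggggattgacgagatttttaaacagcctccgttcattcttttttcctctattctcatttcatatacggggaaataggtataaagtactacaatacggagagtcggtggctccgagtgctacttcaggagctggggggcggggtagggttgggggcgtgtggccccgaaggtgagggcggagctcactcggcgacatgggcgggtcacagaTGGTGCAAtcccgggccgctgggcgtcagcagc

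In the Trib2 sequence the PBX-HOX motif TGATTNAT occurred once, as TGATTGAT, from 184 to 177 bases before the start. The MEIS motif TGACAG also occurred once, from 161 to 156 bases before it. Counted on both strands, TGATTNAT was present in 2.82% of 32851 promoters cut to the same length, TGACAG in 15.9% and both in 0.447%. These motifs were searched after the sequence had been read, and the Trib2 stretch is GC-rich (73.6%, against a median of 52.4% over all promoters). In the Trib3 sequence the exact C/EBP-ATF composite TGATGCAA, through which ATF4 acts, was not found, and TGGTGCAA lay 33 to 26 bases before the start. The pattern TGNTGCAA, which takes in both, was present in 2.72% of promoters. The other motifs searched, on both strands of the Trib2, Trib3 and Cop1 sequences, were the E2F motifs TTTCCCGC and TTTGGCGC, the interferon response element GAAANNGAA, the gamma-activated site TTCNNNGAA, the C/EBP motif TTGCNNAA, the Notch factor RBPJ's GTGGGAA, the FOXO motif GTAAACA and the E-box CACGTG. None of these motifs was in those windows. Of all promoters, 0.895% and 0.417% held the E2F motifs, 7.13% and 7.02% the interferon and gamma-activated ones, 9.56% TTGCNNAA, 5.42% GTGGGAA, 3.17% GTAAACA, 6.02% CACGTG and 0.791% TGATGCAA.

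Trib2 was 10.2-fold lower on the Irgm1-/- arrays, whereas the mean differences of the tested Trib3, Trib1 and Cop1 probe sets were between −0.51 and 0.19 on the log2 scale. The probe set 1426640_s_at of Trib2, the pseudokinase known for its role in leukaemia, read 4.79, 5.39 and 5.71 on the Irgm1-/- arrays and 8.39, 8.90 and 8.66 in wild type. Every Irgm1-/- array lay below every wild-type array, with a gap of 2.68 between the closest of them. The means were 5.30 ± 0.47 on the Irgm1-/- arrays and 8.65 ± 0.25 in wild type (SD, n = 3 each), so that the mean difference was −3.35 (SE 0.27). For this probe set, 10 of the 22580 tested had a more negative difference, and 4 of 10374 genes when each was represented by its brightest tested probe set. The family was selected on this difference, so nothing is read from the rank. The Irgm1-/- values stayed above the array medians and above the highest bacterial control on all 3 arrays, so the difference was measured on both sides. In bulk RNA of this kind, fewer cells that express a gene cannot be told apart from less RNA of it per cell.

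The difference was seen with 1 of the 3 Trib2 probe sets. The second, 1426641_at, which the platform table ties to the same database entry as the first, read 3.58, 3.57 and 3.48 on the Irgm1-/- arrays and 3.51, 3.54 and 3.60 in wild type. The third, 1459852_x_at, read 3.49, 3.50 and 3.34 on the Irgm1-/- arrays and 3.30, 3.48 and 3.36 in wild type. Both lay above the highest bacterial control but below the median of every array, and their groups overlapped. Their log2 differences were −0.0058 (SE 0.06) and 0.06 (SE 0.08). By Affymetrix's naming, the suffix _s_at marks a probe set whose probes match more than 1 transcript, and _x_at one with probes that can cross-hybridise. Which transcripts 1426640_s_at reads beyond Trib2 was not tested.

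Trib3 encodes the stress-induced member that binds AKT, and both of its probe sets were bright and lower on the Irgm1-/- arrays on average. Probe set 1456225_x_at read 9.59, 9.26 and 9.72 on the Irgm1-/- arrays and 9.991, 10.115 and 10.003 in wild type. The groups did not overlap, with a gap of 0.27. The means were 9.52 ± 0.24 on the Irgm1-/- arrays and 10.04 ± 0.07 in wild type (SD, n = 3 each), so that the mean difference was −0.51 (SE 0.16), or 1.43-fold lower. Probe set 1426065_a_at read 8.10, 8.45 and 8.71 on the Irgm1-/- arrays and 8.97, 8.95 and 8.68 in wild type, where the highest Irgm1-/- array overlapped the lowest wild-type one. Its log2 difference was −0.45 (SE 0.20), and −0.29 without Irgm1-/- replicate 1. The lowest Irgm1-/- array was replicate 2 with the first probe set and replicate 1 with the second, so the probe sets gave like differences but not the same order of arrays.

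Trib1, the member linked to macrophage and eosinophil development and to liver lipid metabolism, read 5.90, 5.84 and 5.45 with probe set 1424880_at on the Irgm1-/- arrays and 5.84, 5.91 and 5.84 in wild type. Only Irgm1-/- replicate 3 lay apart, below the other arrays. The log2 difference was −0.14 (SE 0.18), and without that array it was 0.0024. The other Trib1 probe set, 1424881_at, ranged from 3.10 to 3.23 on the Irgm1-/- arrays and from 3.12 to 3.19 in wild type, close to the bacterial controls.

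Cop1, the ligase on which the Tribbles scaffolds depend, read 8.68, 8.96 and 8.59 on the Irgm1-/- arrays and 8.52, 8.51 and 8.62 in wild type. The groups overlapped, since the lowest Irgm1-/- array was below the highest wild-type one. The log2 difference was 0.19 (SE 0.16), and it was 0.09 without Irgm1-/- replicate 2, the highest array.

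**Figure D1:**
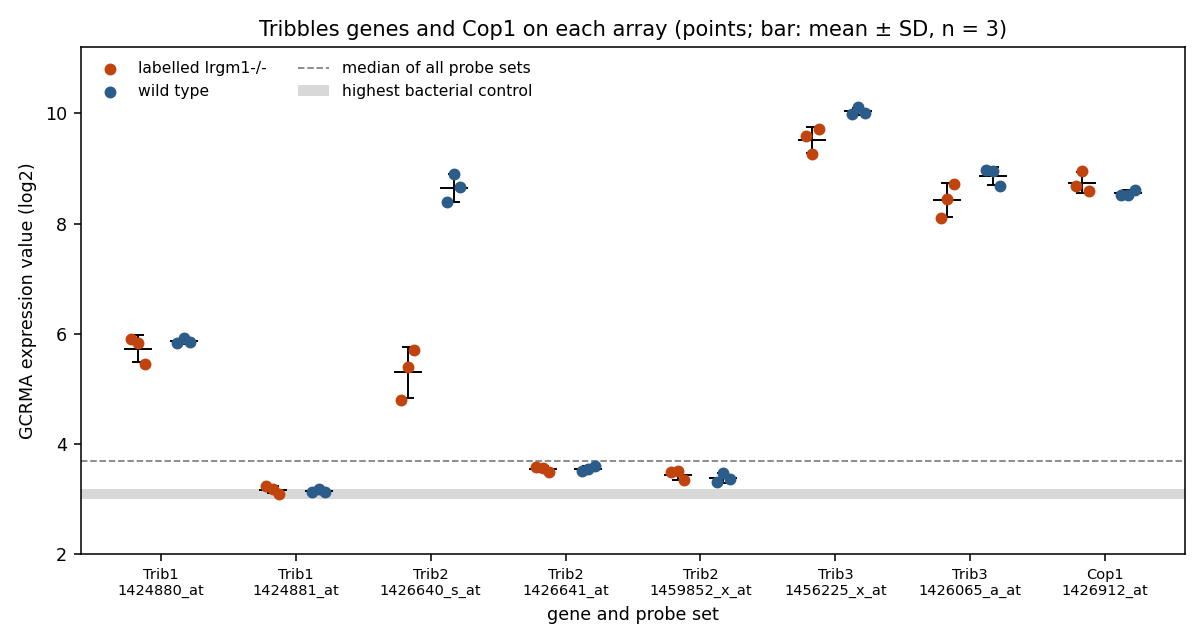
GCRMA expression values (log2, vertical axis) of the 8 probe sets of Trib1, Trib2, Trib3 and Cop1, with a point for each array labelled Irgm1-/- (left) or wild type (right) and bars for the mean ± SD (n = 3). Probe set 1426640_s_at of Trib2 is at 4.79 to 5.71 on the Irgm1-/- arrays and 8.39 to 8.90 in wild type, while 3 probe sets of Trib1 and Trib2 lie below the median of all probe sets (dashed line) and within or near the range of the highest bacterial controls (grey band) in both groups.

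Of the 8 probe sets, 5 passed the filter for testing (above the array median on at least 3 arrays), each of them on all 6 arrays. The limma fit over all probe sets called 1 of these 5 lower at an adjusted p under 0.05, that of Trib2, where 0.722% of all tested probe sets were called lower. For 2 of the 5, 1 each of Trib2 and Trib3, all Irgm1-/- arrays lay below all wild-type arrays, as for 11.0% of tested probe sets. Because the family was chosen with this comparison known, the call is no test of Trib2, and nothing is read from these counts. The Trib2 difference ranged from −3.56 to −3.10 when each array was left out in turn.

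Markers of T and NK cells moved with the group. All 14 on the array (of 15 listed) had a higher mean on the Irgm1-/- arrays. Limma called 5 of the 10 tested higher, beside 1.08% of all genes. The summed level of these markers, in log2 of the sum of linear values, was 13.21 to 14.32 on the Irgm1-/- arrays and 8.99 to 9.98 in wild type. Ccl5 alone read 12.77 to 13.52 on the Irgm1-/- arrays, where it made up most of that sum, and 7.33 to 8.69 in wild type. Cd4 and Ncr1 were at or below the highest bacterial control on all arrays, and Cd3d and Cd3g on the wild-type arrays only. The T cell genes Cd3d, Cd3e, Cd3g, Cd2 and Cd8a were highest on Irgm1-/- replicate 3 (Cd3g 7.06, beside 4.15 and 3.32 on the other two), which also had the highest Trib2 value of its group. Without that array the Trib2 difference was −3.56. On Irgm1-/- replicates 1 and 2, Cd8a read 3.74 and 3.81, beside 3.66 to 3.76 in wild type. Cd247 read 3.42 and 3.62 on those arrays, beside 3.66 to 3.94 in wild type. Any part of T or NK cells in the Trib2 value was not tested.

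The summed level of HSC markers was 13.84 to 14.12 on the Irgm1-/- arrays and 14.12 to 14.39 in wild type, and that of megakaryocyte markers 9.92 to 10.28 on the Irgm1-/- arrays and 8.88 to 9.37 in wild type. Pf4 was the brightest megakaryocyte marker on every array. Of the 6, 4 had a higher mean on the Irgm1-/- arrays, while Gp9 (−0.09) and Ppbp (−0.35) were lower. Limma called 1 of the 4 tested higher (Gp1bb, 1.44, adjusted p = 0.029), beside 1.08% of all genes. At or below the bacterial controls on every array were 4 of 5 erythroid markers (Klf1, Hba-a1, Alas2 and Car1), 2 of 7 neutrophil markers (Elane and Camp), 1 of 4 eosinophil markers (Epx) and 2 of 5 B cell markers (Cd79a and Pax5). Markers of these lists that were above them on every array included Ngp (4.90 to 7.01 on the Irgm1-/- arrays and 5.32 to 7.47 in wild type), Cd79b (6.45 to 6.73 on the Irgm1-/- arrays and 6.65 to 7.39 in wild type) and Epor (5.03 to 5.69 on the Irgm1-/- arrays and 4.59 to 5.13 in wild type). The summed levels overlapped for neutrophil markers (6.83 to 7.98 on the Irgm1-/- arrays and 6.80 to 7.98 in wild type) and B cell markers (6.90 to 7.08 on the Irgm1-/- arrays and 7.02 to 7.67 in wild type). They also overlapped for erythroid markers (5.73 to 6.20 on the Irgm1-/- arrays and 5.45 to 5.77 in wild type) and eosinophil markers (4.98 to 5.12 on the Irgm1-/- arrays and 4.95 to 5.03 in wild type). The summed levels of monocyte and macrophage markers overlapped, at 10.95 to 11.75 on the Irgm1-/- arrays and 11.06 to 11.86 in wild type. Lyz2 was the brightest of these markers, and single members differed in direction. Cd14 read 7.90 to 8.58 on the Irgm1-/- arrays and 9.37 to 9.80 in wild type (limma adjusted p = 0.0518). Cd68 read 7.86 to 8.02 on the Irgm1-/- arrays and 6.97 to 7.62 in wild type (adjusted p = 0.167). Of the 6 markers, 4 had a higher mean on the Irgm1-/- arrays, and limma called 0.

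The genes whose profile lay nearest to that of Trib2 over the 6 arrays were Dcstamp, Ntf5, Rian, Ndn and Clec14a, by the root mean square distance after each profile was centred on its own mean. Their distances were 0.28, 0.30, 0.30, 0.32 and 0.33 log2 units, against a median of 1.71 over the 10373 genes compared. All 5 were lower on the Irgm1-/- arrays, and with 3 arrays per group the difference between the groups makes up most of each profile. Dcstamp, a membrane protein needed for the fusion of osteoclast precursors, read 4.50, 4.62 and 5.65 on the Irgm1-/- arrays and 8.04, 8.30 and 8.68 in wild type. Within the Irgm1-/- group Trib2, Dcstamp and Ntf5 (3.29, 3.57 and 4.38) were highest on replicate 3 and lowest on replicate 1. In wild type Dcstamp was highest on replicate 3 but Trib2 on replicate 2. Clec14a, an endothelial lectin-like receptor, read 3.46, 3.34 and 4.01 on the Irgm1-/- arrays and 6.36, 6.63 and 6.40 in wild type. Ntf5 is a neurotrophin, and Rian and Ndn are imprinted genes, an RNA without a protein and a growth-restraining protein. Rian was below the bacterial controls on all Irgm1-/- arrays (2.47, 2.59 and 2.38), so only a bound is measured there. Ntf5 and Clec14a lay above those controls but below the array medians on Irgm1-/- replicates 1 and 2. The order of these arrays for Ntf5 therefore rests on dim values.

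**Figure D2:**
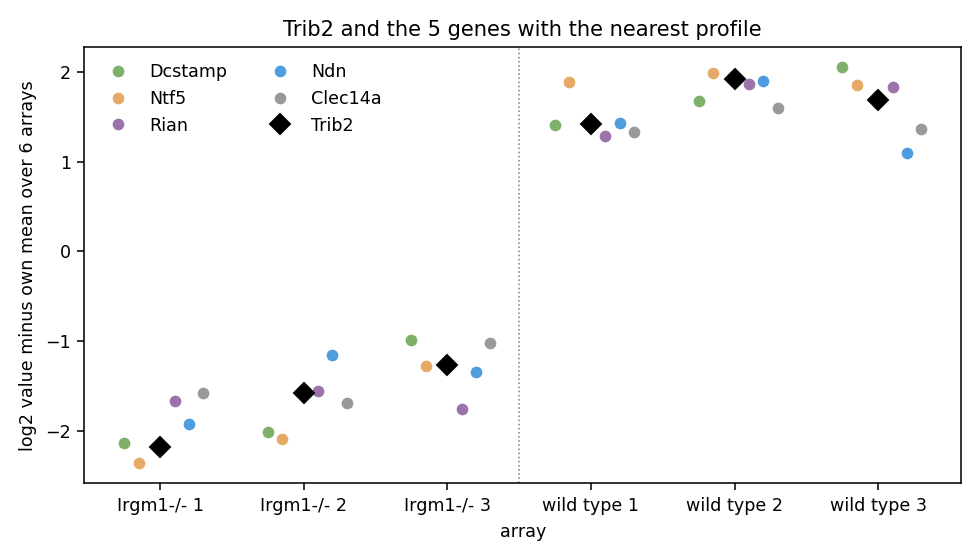
Log2 value minus the gene's own mean over 6 arrays (vertical axis) for Trib2 (black diamonds) and the 5 genes of nearest profile, by array (horizontal axis, Irgm1-/- left of the dotted line, wild type right). All 6 genes are below their mean on each Irgm1-/- array and above it on each wild-type array, at distances from Trib2 of 0.28 to 0.33 log2 units.

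The partners and targets of the family were then counted in the same limma fit, each gene by its brightest tested probe set. Over all 10374 genes, 1.08% were called higher and 0.954% lower, and the median difference was 0.0032. At an unadjusted p under 0.05, 8.51% were higher and 10.0% lower. Of 10 lists, 1 held a called gene, and the lists were drawn up with earlier results of these arrays known.

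No gene of the COP1 ligase machinery passed the test. COP1 works with DET1 and the CUL4-DDB1-RBX1 core, which NEDD8 activates and the COP9 signalosome (Cops5, Cops6) resets. Limma called 0 of 10 tested genes in either direction, and at an unadjusted p under 0.05 there was 1 lower, the scaffold cullin Cul4b (−0.58, SE 0.23, adjusted p = 0.282). It read 9.24, 9.62 and 9.77 on the Irgm1-/- arrays and 9.94, 9.88 and 10.56 in wild type, whereas its other tested probe set had the opposite sign (0.19). Next came Cops6 (0.30, SE 0.14, adjusted p = 0.349) and Dda1 (−0.41, SE 0.28, adjusted p = 0.515), whose other probe sets were at 0.16 and −0.16. The list's median difference was −0.0011. Among 3 other ligases named with Tribbles (Smurf1, Btrc and Siah1a), limma also called 0, with 0 at an unadjusted p under 0.05 and differences of −0.36, 0.03 and −0.13. Further probe sets of Btrc (−0.34) and Siah1a (0.78 and −0.30) differed from these in sign or size.

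Substrates of COP1 gave no call. Cebpa, the substrate through which Trib1 and Trib2 block myeloid differentiation, read 2.40 to 2.45 on the Irgm1-/- arrays and 2.39 to 2.43 in wild type. That is below the highest bacterial control on all 6 arrays, so its transcript was not measurable here and it was not tested. The same held for Etv4. Limma called 0 of the 5 tested substrates, with 0 at an unadjusted p under 0.05 and a median difference of −0.27. The immediate early factor Jun differed by 0.18 (SE 0.26, adjusted p = 0.783), or by −0.18 with its other probe set, and Etv5, Ets2 and Crtc2 by −0.48, −0.36 and −0.27 (adjusted p = 0.508, 0.542 and 0.49). The other Crtc2 probe set was at −0.43.

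Other C/EBP factors were measured better. None of 4 tested genes was called by limma, and 2 were lower at an unadjusted p under 0.05, as were 10.0% of all genes. Cebpg read 10.52, 10.69 and 10.53 on the Irgm1-/- arrays and 10.86, 10.89 and 11.08 in wild type (−0.37, SE 0.13, adjusted p = 0.224). Cebpb, the inflammatory family member, read 8.76, 8.68 and 8.77 on the Irgm1-/- arrays and 9.07, 9.10 and 9.11 in wild type (−0.36, SE 0.14, adjusted p = 0.264). On these probe sets the groups did not overlap, though neither gene passed the test. All Irgm1-/- arrays lay below all wild-type arrays for 11.0% of tested probe sets. The other probe sets of Cebpg were at 0.13 and −0.57. Ddit3 (CHOP), the stress-induced member that drives Trib3, differed by 0.35 (SE 0.22, adjusted p = 0.474), and by 0.22 with its other probe set.

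Of the myeloid genes linked to C/EBP alpha, limma called 0 of 12 tested, with a median difference of −0.09. At an unadjusted p under 0.05, 2 were lower, as were 10.0% of all genes. Irf8, a monocyte and dendritic cell factor, differed by −0.68 (SE 0.26, adjusted p = 0.257), the IL-6 receptor gene Il6ra by −0.58 (SE 0.23, adjusted p = 0.283) and Klf5 by −0.55 (SE 0.25, adjusted p = 0.328). The other Irf8 probe set was at −0.80. Both probe sets of Klf5 were lower on average, and 1 passed the test. The dimmer one, 1451739_at, read 5.17, 4.79 and 4.87 on the Irgm1-/- arrays and 6.07, 5.88 and 6.33 in wild type, and was called lower (−1.15, SE 0.19, adjusted p = 0.0385). The granule protease genes Elane and Ctsg were not above the highest bacterial control on any array and were not tested.

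In the MEK and ERK arm 5 of 17 tested genes had a positive difference, and none passed the test. Limma called 0 of them, and the median difference was −0.25, beside 0.0032 over all genes. At an unadjusted p under 0.05, 6 were lower and 0 higher, beside 10.0% lower and 8.51% higher over all genes. The lists were drawn up with earlier results of these arrays known, so nothing is read from counts such as these. The feedback inhibitor Spry1 read 7.36, 6.85 and 6.80 on the Irgm1-/- arrays and 8.04, 7.77 and 7.93 in wild type (−0.91, SE 0.21, adjusted p = 0.101). Spred2, another inhibitor of the cascade, read 9.02, 8.79 and 8.88 on the Irgm1-/- arrays and 9.46, 9.54 and 9.87 in wild type (−0.73, SE 0.17, adjusted p = 0.101). The groups did not overlap in either gene, where 11.0% of tested probe sets had all Irgm1-/- arrays below all wild-type arrays. Of the 3 other Spred2 probe sets tested, 2 had the opposite sign. Map2k1, which encodes the Tribbles partner MEK1, read 8.62, 8.64 and 8.53 on the Irgm1-/- arrays and 8.89, 9.10 and 9.24 in wild type (−0.48, SE 0.16, adjusted p = 0.2). The early gene Ier3 differed by −0.49 (SE 0.16, adjusted p = 0.199), and Egr1, an ERK target, by 0.01 (SE 0.15, adjusted p = 0.981).

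The AKT arm likewise held no called gene among 16 tested by limma, with a median difference of −0.06. At an unadjusted p under 0.05, 5 were lower and 0 higher, beside 10.0% lower and 8.51% higher over all genes. The catalytic PI3K gamma subunit Pik3cg read 8.52, 8.65 and 9.19 on the Irgm1-/- arrays and 9.86, 9.63 and 9.47 in wild type (−0.87, SE 0.22, adjusted p = 0.119). Its other probe set was at −0.46. Foxo3, a stem cell factor that AKT keeps out of the nucleus, differed by −0.43 (SE 0.16, adjusted p = 0.259). With its other probe set the groups overlapped (−0.14, SE 0.22, adjusted p = 0.798). The regulatory subunit Pik3r1 differed by −0.48 (SE 0.19, adjusted p = 0.281), and its other probe set by 0.20. The kinases themselves were at 0.10 (Akt1, adjusted p = 0.887) and −0.46 (Akt2, adjusted p = 0.415). Further probe sets were at −0.10 and −0.09 (Akt1) and −0.57 (Akt2).

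In the ATF4 programme, to which Trib3 belongs, limma called 1 of 25 tested genes higher, beside 1.08% of all genes. It was Nupr1, a small stress-induced nuclear protein. Nupr1 read 9.41, 9.59 and 8.52 on the Irgm1-/- arrays and 7.48, 7.70 and 7.05 in wild type (1.76, SE 0.31, adjusted p = 0.0484). The gene's other tested probe set was at 1.40 (adjusted p = 0.0727). The call was lost in 10 of 12 alternatives, with an adjusted p of up to 0.17. Limma called 0 of the 25 tested genes lower. At an unadjusted p under 0.05, 2 were lower, beside 10.0% over all genes. The 2 were the stress gene Herpud1 (−0.57, SE 0.16, adjusted p = 0.155) and the haem-regulated eIF2 alpha kinase Eif2ak1 (−0.55, SE 0.17, adjusted p = 0.194). Further probe sets were at −0.64 (Herpud1) and from −0.58 to −0.09 (Eif2ak1). The cystine transporter Slc7a11 was at −0.50 (SE 0.22, adjusted p = 0.317). Atf4 itself was at −0.19 (SE 0.24, adjusted p = 0.747) and Asns, its classical amino acid target, at 0.0093 (SE 0.14, adjusted p = 0.981). Their other probe sets were at 0.54 (Atf4) and −0.34 (Asns). The median difference of the list was also 0.0093, with a range of −0.57 to 1.76. The Trib3 probe sets, at −0.51 and −0.45, lay within that range.

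**Figure D3:**
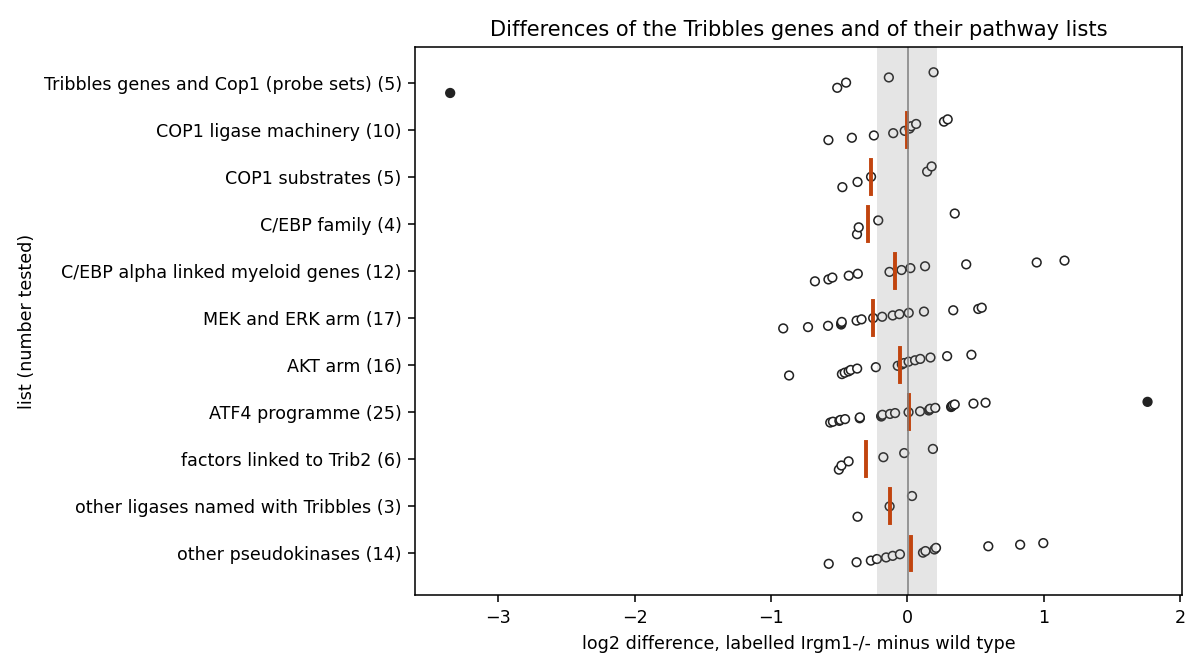
Log2 difference, Irgm1-/- minus wild type (horizontal axis), of the 5 tested probe sets of the Tribbles genes and Cop1 and of every tested gene of 10 pathway lists (rows). Filled points were called by limma, orange-red bars are list medians, and the grey band is the interquartile range of all 10374 genes. Trib2 at −3.35 and Nupr1 at 1.76 are the filled points. The filling of the Trib2 point is no test, since the family was selected on this difference.

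Transcription factors linked to Trib2 were compared last, since its promoter is bound by HOXA9 with MEIS1 in leukaemia, by TAL1 and Notch in T cell leukaemia and by E2F1, whereas FOXO3 is a factor that Trib2 restrains in human melanoma. Limma called 0 of the 6, with a median difference of −0.30. At an unadjusted p under 0.05, 3 were lower and 0 higher, beside 10.0% lower and 8.51% higher over all genes. Hoxa9 read 13.40, 13.62 and 13.55 on the Irgm1-/- arrays and 13.90, 14.03 and 14.09 in wild type, with no overlap (−0.48, SE 0.10, adjusted p = 0.0774). Its other tested probe set read 6.46, 6.45 and 6.31 on the Irgm1-/- arrays and 7.205, 6.87 and 6.78 in wild type (−0.54, SE 0.18, adjusted p = 0.218). On both, all Irgm1-/- arrays lay below all wild-type arrays, as for 11.0% of tested probe sets.

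Meis1, the partner of HOXA9, read 12.16, 11.95 and 12.25 on the Irgm1-/- arrays and 12.42, 12.21 and 12.26 in wild type, where the groups overlapped (−0.18, SE 0.12, adjusted p = 0.525). Further Meis1 probe sets were at −0.08 and −0.12. Notch1 was at −0.50 (SE 0.20, adjusted p = 0.282), with 1 wild-type array inside the Irgm1-/- range, and its dimmer probe set at 0.06. E2f1, a cell cycle activator, differed by 0.19 (SE 0.27, adjusted p = 0.783) and Tal1 by −0.02 (SE 0.12, adjusted p = 0.943). The dimmer E2f1 probe set was at −0.06. The differences of the 6 spanned −0.50 to 0.19. Any part of these factors in the Trib2 difference (−3.35 with 1426640_s_at) was not tested.

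**Figure D4:**
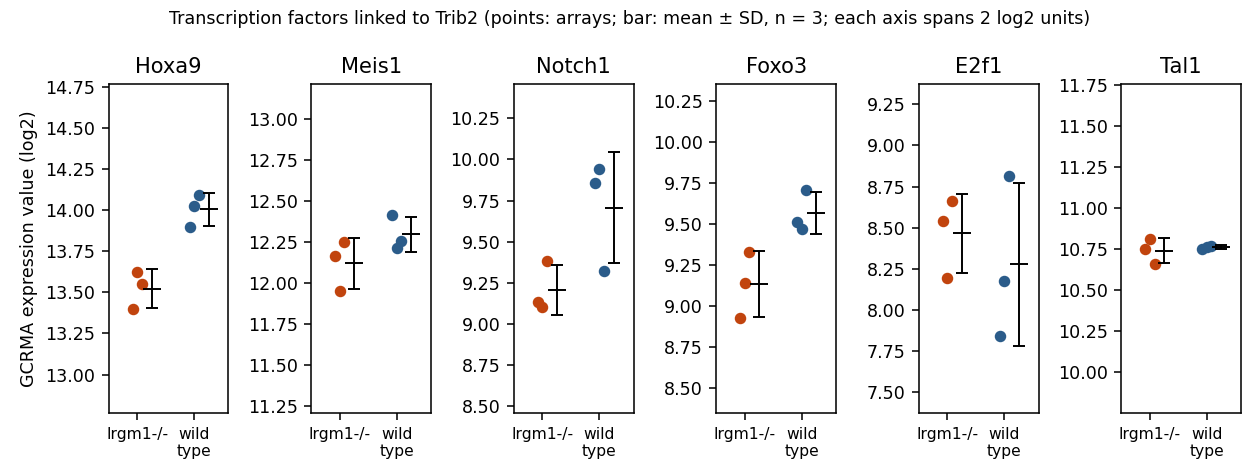
GCRMA expression values (log2, vertical axes of equal span) of 6 transcription factors linked to Trib2 on each array labelled Irgm1-/- (left) or wild type (right), with bars for the mean ± SD (n = 3). On the probe sets shown, Hoxa9 and Foxo3 are lower on all 3 Irgm1-/- arrays than on any wild-type array, as for 11.0% of all tested probe sets. Meis1, Notch1, E2f1 and Tal1 overlap, as does the other Foxo3 probe set (not shown).

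Other pseudokinases were counted to set the family beside like proteins. Of 14 tested, limma called 0, with a median difference of 0.03. At an unadjusted p under 0.05, 2 were higher and 0 lower, beside 8.51% higher and 10.0% lower over all genes. Mlkl, the effector of necroptosis, read 8.19, 8.55 and 8.23 on the Irgm1-/- arrays and 7.24, 7.62 and 7.12 in wild type (0.997, SE 0.20, adjusted p = 0.0724). The receptor Erbb3 was at 0.83 (SE 0.27, adjusted p = 0.2) and Stradb, an activator of LKB1, at −0.27 (SE 0.12, adjusted p = 0.34). The other Stradb probe set was at −0.85. Stk40, a Tribbles-related pseudokinase that also binds COP1, read 8.26, 7.74 and 8.44 on the Irgm1-/- arrays and 8.55, 8.12 and 7.42 in wild type (0.12, SE 0.32, adjusted p = 0.895), and its groups overlapped.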

How the data were processed

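The authors deposited 1 log2 expression value per probe set and array. The submitters' processing notes name GCRMA, which corrects background by probe sequence, normalises across arrays and summarises probes, without a version. That the scale is log2 was judged by the range. Per the labels' protocols, the RNA went through 2 rounds of T7 amplification, which favours 3' ends. The values were used unchanged.

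The comparison used limma (version 3.58.1, R 4.3.3), with lmFit and eBayes with an intensity trend, 2-sided, with Benjamini-Hochberg adjustment over the 22580 non-control probe sets above their array's median on at least 3 of 6 arrays. Differences are Irgm1-/- minus wild type. SEs of members come from this fit, or from the unfiltered fit where untested. On simulated data with the spread of these arrays, the fit recovered 35% of 2-fold and 82% of 4-fold changes. A list without a call may therefore hold changes of such sizes. The number of arrays limits precision.

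Members and gene lists were chosen with earlier results of these data known. Named genes were all members, each list's called genes and up to 3 further ones with the smallest p, and the 5 genes nearest in profile. Cebpa, Etv4, Jun, Map2k1, Egr1, Akt1, Akt2, Atf4, Asns, Elane, Ctsg, Tal1, Meis1, E2f1, Stk40, the second probe sets and the marker genes were named outside that rule, after values were seen. Some listed genes were not analysed here.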

Additional observations from a re-analysis of the deposited data

How the results depend on the processing

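The Trib1, Trib3 and Cop1 differences moved by less than 1 SD between arrays under every alternative run (without Irgm1-/- replicate 3 that of Trib1, −0.14, was 0.0024), and that of Trib2 under all but other probe sets. In place of 1426640_s_at, the dim Trib2 probe sets gave −0.0058 (1426641_at) and 0.0646 (1459852_x_at, the opposite sign), and the mean of the 3 gave −1.10. The cause was not tested. Under the replicate block the Trib2 difference was −3.35. Same-numbered arrays did not deviate together (correlations of −0.11, −0.02 and −0.28), so the numbers were not taken as pairs. Over all probe sets, 150 were called higher and 163 lower. These counts were 49 and 54 with no filter, 401 and 463 with array weights and 27 and 41 with the replicate block, and ranged from 17 to 138 and from 28 to 129 when single arrays were left out, both lowest without wild-type replicate 2. The 1 call in the ATF4 programme (Nupr1) became 0 with no filter, quantile normalisation, median centring, no intensity trend or the replicate block, and 0 to 1 without single arrays, where it was kept without Irgm1-/- replicate 3 and lost without each other array. Array weights added 1 call lower each in the MEK and ERK arm (Spred2), the AKT arm (Pik3cg) and the factors linked to Trib2 (Hoxa9), and 1 higher among other pseudokinases (Mlkl). Counting any tested probe set added 1 lower myeloid gene (Klf5). The other 245 list counts under alternatives did not change. With 3 arrays per group and GCRMA's low band, differences of dim genes such as Cebpa were not detectable.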
